A study of Mus musculus with 8 samples.

Results

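The interferon-inducible GTPases described here are 9 mouse genes of the 53715 in the deposited expression table: the guanylate-binding protein genes Gbp2, Gbp3, Gbp5 and Gbp7, and the immunity-related GTPase genes Irgm1, Irgm2, Igtp, Iigp1 and Ifi47. They were chosen by name from these families, and all 9 were found in the table. RNA was sequenced from mouse macrophages labelled Sting-/-, that is, with the endogenous gene for STING disrupted. STING is the endoplasmic reticulum adaptor that signals the presence of cytosolic DNA. The cells stably expressed no transgene, mouse STING (mSTING), mouse STING without its C-terminal tail (mSTING-dCTT, here dCTT) or mouse STING with a zebrafish tail (mSTING-zfCTT, here zfCTT), with 2 libraries for each of the 4 groups. All 8 libraries came from cells given 500 µg/ml of CMA, a ligand of mouse STING, for 4 h, so no untreated level is part of the comparisons. The labels leave unsaid whether a line was 1 clone and whether the pair of libraries in a group stands for 2 cultures, so p-values here speak to library spread, possibly technical, alone. The comparisons address how the tail of STING shapes the transcription that STING sets off.

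Guanylate-binding proteins are large GTPases that assemble on vacuoles and on bacteria in the cytosol, where they open membranes and feed bacterial products to caspase-11 and the inflammasomes. Immunity-related GTPases act on the same vacuoles. Irgm1, Irgm2 and Igtp (Irgm3) are the regulatory members that protect the cell's own membranes, whereas Iigp1 (Irga6), Ifi47 (Irgd), Tgtp and Irgb10 are effectors that load onto the vacuole. In macrophages the genes are textbook targets of interferon-gamma and of type I interferon, which act through STAT and IRF transcription factors. STAT dimers bind the GAS element, and IRF proteins, IRF1 and IRF9 among them, bind the ISRE.

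Most of the genes have a family neighbour in the mouse genome (GRCm38). Gbp5, Gbp7, Gbp3 and Gbp2 lie in that order on the plus strand of chromosome 3, between chr3:142493978 and chr3:142638008. On chromosome 11, Irgm1, on the minus strand, and Ifi47 lie between chr11:48861968 and chr11:49096974, and Igtp and Irgm2 lie apart from them, between chr11:58199556 and chr11:58222782. Some exons are shared with a neighbour: 162 bases between Igtp and Irgm2 on the same strand, 637 between Gbp7 and Gm43802, and 111 and 106 between Ifi47 and Olfr56 and Gm12188. Reads of those bases cannot be told apart without knowledge of how they were counted, and the values of these genes are uncertain to that extent.

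The promoters of the genes are shown because the members moved together in these data. RefSeq promoter windows of 300 bases, from 250 before to 50 after the start of the transcript (GRCm38.p6), were present for 8 of the 9 members, Iigp1 being the one without. The ISRE core GAAANNGAAA, which reads TTTCNNTTTC on the other strand, was found on either strand in 7 of these 8 genes and in 3.44% of all 32851 windows. The GAS core TTCNNNGAA was found in Gbp5, Gbp7, Irgm2 and Igtp and in 8.30% of all windows, and a kappa B site in Gbp5 and in 4.51%. Ifi47 held none of the 3 motifs in its window, which says only that these letters are not there. Below, 5′ to 3′ on the gene's strand, capitals mark the motif letters: TTTC or GAAA ends for the ISRE, TTC to GAA for the GAS core, and GGAAATTCCC for the kappa B match.
Gbp2, chr3:142620594-142620623: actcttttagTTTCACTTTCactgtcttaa
Gbp3, chr3:142559992-142560021: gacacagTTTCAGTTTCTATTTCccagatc
Gbp7, chr3:142530226-142530295: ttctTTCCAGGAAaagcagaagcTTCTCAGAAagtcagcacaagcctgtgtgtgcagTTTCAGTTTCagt
Gbp5, chr3:142496684-142496893: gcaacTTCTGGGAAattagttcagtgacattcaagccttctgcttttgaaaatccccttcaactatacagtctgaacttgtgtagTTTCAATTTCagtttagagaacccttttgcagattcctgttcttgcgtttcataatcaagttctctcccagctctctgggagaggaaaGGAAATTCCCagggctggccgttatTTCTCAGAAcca
Irgm1, chr11:48871428-48871457, minus strand: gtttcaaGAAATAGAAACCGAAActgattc
Igtp, chr11:58199507-58199536: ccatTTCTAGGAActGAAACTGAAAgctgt
Irgm2, chr11:58214898-58214927: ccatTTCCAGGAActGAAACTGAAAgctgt
Tgtp2, chr11:49064268-49064297, minus strand: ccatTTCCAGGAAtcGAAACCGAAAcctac
All 4 Gbp genes carried the ISRE in the TTTC form, and Irgm1, Irgm2 and Igtp carried it in the GAAA form. In Gbp3 and in Irgm1, 2 cores overlapped, so their capitals run together. In Igtp, Irgm2 and Tgtp2, the last an effector gene outside the 9, the GAS core lay 2 bases before the ISRE core. The 30 bases of Igtp and Irgm2 were identical at 29 positions and differed by T8C, counted from 1 at the 5′ end with the Igtp base given before the position and the Irgm2 base after it. GENCODE places 22 of the 30 bases shown for Gbp2 and all 30 of those for Irgm1 in an exon, and none of the bases shown for the others. A match is a description of the letters and not evidence that a factor was bound.

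The targeted gene was checked in each library. Tmem173, which encodes STING, stood at 3.23 and 2.42 RPKM (reads per kilobase of gene model, relative to library depth) without a transgene, at 22.7 and 15.0 with dCTT, at 10.6 and 22.2 with mSTING and at 14.2 and 20.6 with zfCTT. Reads of the gene were thus counted in cells without a transgene too; a value for the whole gene cannot show which part is deleted, and the source of these reads was not tested. All 6 transgenic libraries were above both without a transgene, and the 3 transgenic groups overlapped. The 8 macrophage markers, among them Adgre1, Cd68 and Lyz2, summed to 539 to 806 RPKM in the mSTING and zfCTT libraries and to 839 to 1144 in the others; the part of this in the results was not tested. Markers of T cells, NK cells, B cells, neutrophils, dendritic cells, fibroblasts and epithelium summed to at most 0.447 RPKM each, and Cd3e, Ncr1 and Ly6g were at 0 in all libraries. Depth, recovered from the steps of the values, was 20.1 and 34.8 M reads in zfCTT and 27.7 to 171 M in the others. In a principal component analysis, zfCTT replicate 1 stood apart from the rest on PC1 (38.2% of the variance), and replicate 1 without a transgene and replicate 1 of dCTT on PC2 (37.0%).

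Without a transgene and with dCTT, the family was low. Igtp was the most abundant member in both groups, at 1.82 and 1.73 RPKM without a transgene and 2.30 and 1.56 with dCTT. Irgm2 had 1.08 and 0.645 without a transgene and 1.12 and 0.738 with dCTT. Ifi47, an effector, had 1.23 and 0.835 without a transgene and 0.748 and 0.783 with dCTT, so that it overlapped with Irgm2 in both groups. Together with Irgm1, these immunity-related GTPases made up most of the family's signal in both groups. Irgm1, a regulator also known for its role in mitochondrial quality control, had 0.652 and 0.367 RPKM without a transgene and 0.448 and 0.331 with dCTT. The guanylate-binding protein genes were lower: Gbp3 stood at 0.173 to 0.197 RPKM over the 4 libraries and Gbp7 at 0.0385 to 0.0576. Gbp2 was close to the detection limit, with 1 and 2 reads without a transgene and 3 and 3 reads with dCTT. Gbp5 and Iigp1, the member on chromosome 18, had 0 reads in all 4 libraries.

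Tmem173 RNA in the dCTT cells thus overlapped with that of the other transgenic groups, while the GTPases stayed near the level of cells without a transgene. Differences in log2(RPKM + 1) between dCTT and no transgene ran from -0.19 for Ifi47 to 0.07 for Igtp over the 8 tested members, with a median of 0.00 beside -0.01 over all 13475 tested genes. No member passed the test (limma, Benjamini-Hochberg adjusted p = 1 for each) and 0 had an unadjusted p under 0.05. Over all genes 0% were called higher, and 36 genes had an unadjusted p under 0.05. Both dCTT libraries lay above both of the others in 1 member, Gbp7, against 7.75% of all tested genes, and below them in 2, Gbp3 and Ifi47, against 6.69%.

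**Figure D1:**
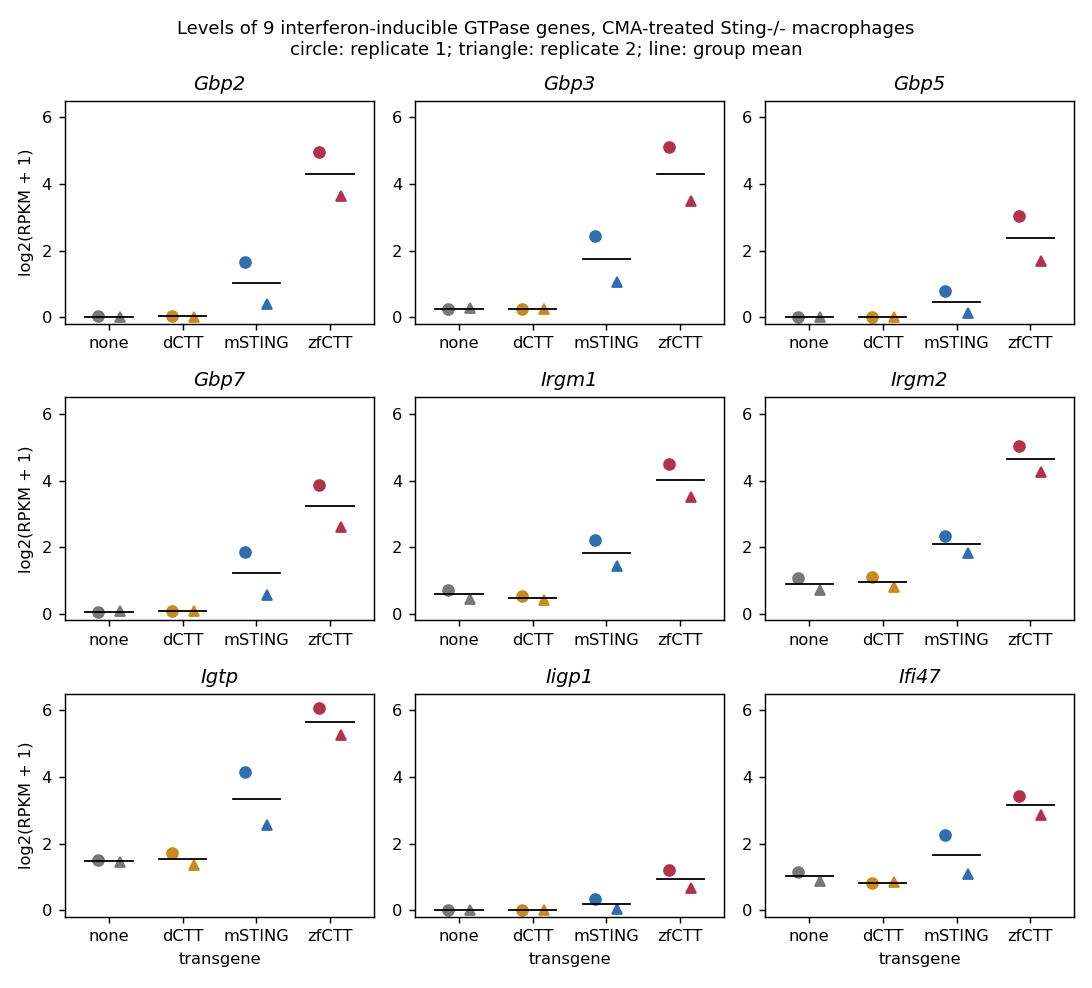
Level of each of the 9 genes as log2(RPKM + 1), by transgene; a circle is replicate 1, a triangle replicate 2 and a line the mean of the 2 libraries. All 9 genes are at their highest in both zfCTT libraries, and the mSTING libraries lie between these and the others, except that Ifi47 in mSTING replicate 2 is within the range of the cells without a transgene.

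With mSTING, every member was higher in both libraries than in the cells without a transgene except Ifi47, yet the 2 mSTING libraries were far apart. In RNA from whole cultures, fewer responding cells and less RNA per responding cell cannot be told apart. Gbp2, which is prenylated and coats the vacuoles of Toxoplasma, had 2.17 and 0.307 RPKM (481 and 68 reads). Gbp3 had 4.45 and 1.08, and Gbp7, which is linked to assembly of the NADPH oxidase, 2.64 and 0.463. Gbp5, another prenylated member, reported to act on the NLRP3 inflammasome, had 0.711 and 0.101, where the cells without a transgene had no read. Each of these 4 genes was higher in replicate 1 than in replicate 2. Among the regulators, Irgm1 had 3.59 and 1.71 RPKM, Irgm2 4.04 and 2.56, and Igtp 16.6 and 4.94. Among the effectors, Ifi47 had 3.75 and 1.10 RPKM, and its replicate 2 lay between the libraries without a transgene. Iigp1 had 0.262 and 0.0218 RPKM, close to 134 and 11.2 reads, which were not whole numbers and are approximate.

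The ratio of mean RPKM, mSTING over no transgene, was 5.21 for Irgm1, 3.81 for Irgm2, 6.07 for Igtp, 14.4 for Gbp3 and 36.8 for Gbp7. It was 2.35 for Ifi47, the lowest of the members that had reads in both groups. For Gbp2 it was 112, and the ratio of pooled read rates had a 95% counting interval of 45.6 to 651, because the cells without a transgene had 3 reads in all. By mean level, Gbp5 was at least 39.1-fold higher and Iigp1 at least 12-fold higher than the level of 3 reads in each library without a transgene. With mSTING replicate 2 alone, these floors were 9.71-fold and 1.84-fold. In the fit of log2(RPKM + 1), the largest difference was that of Igtp, 1.88 ± 0.51 (SE, n = 2 per group), and the smallest that of Gbp5, 0.46 ± 0.43. No member was called (limma, adjusted p = 0.840 for all 8), and 4 of the 8 had an unadjusted p under 0.05. The background was likewise 0% of all tested genes called higher, with 467 genes at an unadjusted p under 0.05 and 0 members called by voom on recovered reads. The mSTING libraries lay above both libraries without a transgene in 8 of the 9 members (7 of the 8 tested), against 15.3% of all tested genes. The median difference of the tested members was 1.17, beside -0.04 over all genes. Against dCTT, which shares the mSTING libraries with this comparison, all 9 members were lower in both dCTT libraries, against 12.8% of all tested genes, with a median difference of -1.14. None was called there either (limma, adjusted p = 0.9999 for all 8), as for 0% of all genes. At an unadjusted p under 0.05 there were 4 members, beside 336 of all tested genes. Only Irgm2 and Igtp passed the filter on low values without the mSTING and zfCTT libraries, and Iigp1 failed it. The counts of members in both comparisons are thus descriptions.

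With zfCTT, all 9 genes were at their highest. Igtp reached 65.9 and 37.5 RPKM and was again the most abundant, above every other member in both libraries. Irgm2 had 31.6 and 18.1 RPKM and Irgm1 21.8 and 10.4. Gbp2 had 30.2 and 11.4 RPKM, from 1525 and 997 reads, where the cells without a transgene had 1 and 2. It thus moved from the seventh of the 9 in rank to the fourth by mean level. Gbp3 had 33.9 and 10.3 RPKM, Gbp7 13.6 and 5.10, and Gbp5 7.25 and 2.25. These 3 genes, like Gbp2, were highest in zfCTT replicate 1. Ifi47 had 9.76 and 6.30 RPKM, and Iigp1, the lowest member here, 1.31 and 0.571. By mean level the order in zfCTT was Igtp (51.7 ± 20.1 RPKM, SD, n = 2), Irgm2 (24.9 ± 9.54), Gbp3 (22.1 ± 16.7), Gbp2 (20.8 ± 13.3), Irgm1 (16.1 ± 8.06), Gbp7 (9.35 ± 6.002), Ifi47 (8.03 ± 2.45), Gbp5 (4.75 ± 3.54) and Iigp1 (0.941 ± 0.523). Only at the ends did neighbours in this order not overlap in their libraries, namely Igtp with Irgm2 and Gbp5 with Iigp1.

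Relative to cells without a transgene, Gbp2, Gbp3, Irgm1, Irgm2 and Igtp rose with zfCTT. The rise in log2(RPKM + 1) was 4.28 ± 0.53 for Gbp2 (limma, adjusted p = 0.0244) and 4.06 ± 0.60 for Gbp3 (adjusted p = 0.0440). It was 3.42 ± 0.38 for Irgm1 (adjusted p = 0.0203), 3.75 ± 0.31 for Irgm2 (adjusted p = 0.0130) and 4.19 ± 0.51 for Igtp (adjusted p = 0.0244). All 3 regulators of the immunity-related GTPases were thus among the genes that passed. Gbp2 entered the test only because of the zfCTT libraries, given the filter of 1 RPKM in at least 2 libraries. Its call thus carries no weight of its own. The effector Ifi47 (2.13 ± 0.39, adjusted p = 0.0638), Gbp5 (2.37 ± 0.43, adjusted p = 0.0638) and Gbp7 (3.18 ± 0.52, adjusted p = 0.0529) did not pass. As ratios of mean RPKM, which the added 1 does not compress, zfCTT exceeded no transgene 1876-fold for Gbp2 (counting interval of the pooled read rates 675 to 9589), 222-fold for Gbp7 and 115-fold for Gbp3. The ratio was 31.5 for Irgm1, 29.2 for Igtp, 28.8 for Irgm2 and 7.795 for Ifi47, and at least 457 for Gbp5 and at least 79.5 for Iigp1, which had no read without a transgene. With zfCTT replicate 2 alone, the floors of Gbp5 and Iigp1 were 216 and 48.2. Ratios of the Gbp genes were thus above those of the 4 immunity-related GTPases that had reads in both groups; this difference was not tested.

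In that comparison 5 of the 8 tested members were called higher, against 0.928% of all tested genes, and all 9 members had both zfCTT libraries above both without a transgene, against 18.8%. The median difference of the tested members was 3.59, beside -0.04 over all genes. These counts carry no weight of their own for 3 of the 8 tested genes, since Gbp2, Gbp5 and Gbp7 passed the filter on low values (1 RPKM in at least 2 libraries) only because of the zfCTT libraries, and Iigp1 failed it. Against dCTT, which shares the zfCTT libraries with the comparison above, the same 5 genes were called, beside 0.913% of all genes called higher. The same limit of the filter holds for this comparison. There Irgm2 rose by 3.70 (adjusted p = 0.0126), Irgm1 by 3.53 (adjusted p = 0.0206), Gbp2 by 4.28 (adjusted p = 0.0254), Igtp by 4.12 (adjusted p = 0.0259) and Gbp3 by 4.08 (adjusted p = 0.0428), by limma. Gbp7 differed by 3.16 (adjusted p = 0.0534), Ifi47 by 2.33 (adjusted p = 0.0557) and Gbp5 by 2.37 (adjusted p = 0.0693).

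The calls of members against no transgene and against dCTT depended on single libraries. Most or all of them, and most calls over all genes, were lost without any one no-transgene or dCTT library or zfCTT replicate 1. All groups share 1 estimate of the spread, so a library outside a comparison also affects its calls. The median difference against no transgene stayed at 3.59 without either dCTT library. It was 3.08 without zfCTT replicate 1 and 4.03 without zfCTT replicate 2. Against dCTT the median was 3.15 and 4.06 without these 2 libraries in turn. A block for the replicate number gave 8 called members in both comparisons, beside 432 and 409 of all tested genes, higher or lower. Voom on the recovered reads gave 2 and 3, beside 53 and 169. The fit without a filter on low values gave 0 in both, beside 34 and 28. In the fit used above 5 members were called in both, beside 146 of all tested genes in each. The share of summed RPKM from the 13 mitochondrially encoded protein genes was 0.10% and 0.12% in zfCTT and 0.21% to 0.30% elsewhere, and its part in the result was not tested.

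**Figure D2:**
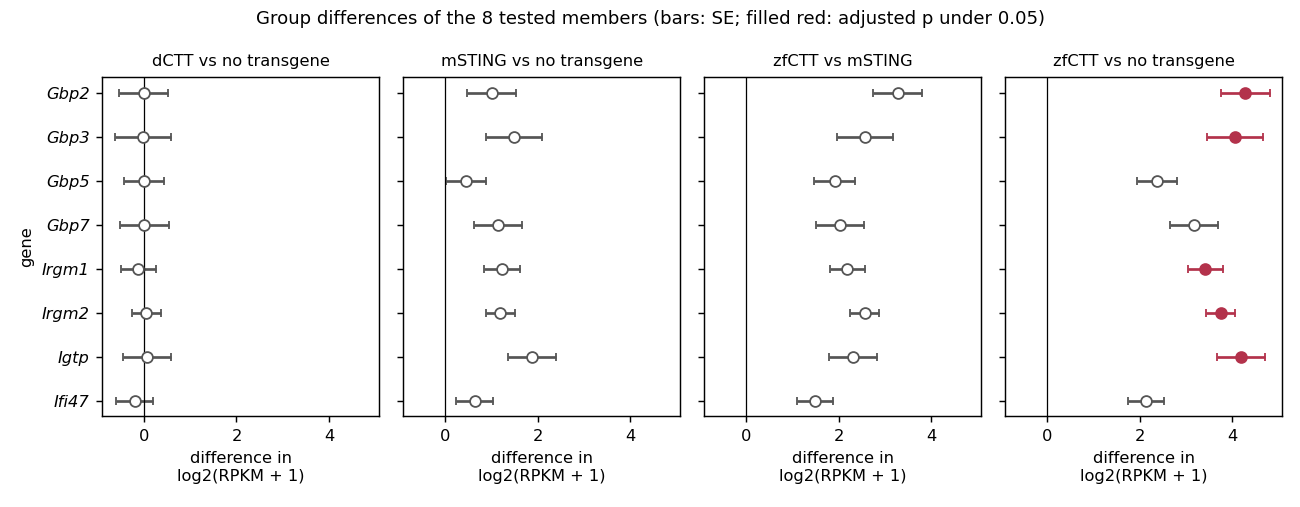
Difference in log2(RPKM + 1) of the 8 tested members in 4 comparisons, with SE bars from the limma fit; filled red points have an adjusted p under 0.05. The differences of dCTT lie around 0, those of mSTING between 0.46 and 1.88, and those of zfCTT against no transgene between 2.13 and 4.28, with 5 of 8 past the threshold.

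Taken over both groups with a tail, mSTING and zfCTT, against the 2 without one, no transgene and dCTT, 5 members rose, beside 0.779% of all tested genes called higher. Of these, Gbp2, Gbp3 and Irgm1 had passed the filter on low values only through the libraries with a tail, so the count is a description; Irgm2 and Igtp passed it without them. They were Irgm2 (2.45 ± 0.22, limma adjusted p = 0.0139), Irgm1 (2.38 ± 0.27, adjusted p = 0.0243), Igtp (3.003 ± 0.36, adjusted p = 0.0283), Gbp2 (2.64 ± 0.37, adjusted p = 0.0413) and Gbp3 (2.79 ± 0.43, adjusted p = 0.0473). Gbp7 had an adjusted p of 0.0624, Ifi47 of 0.0764 and Gbp5 of 0.112. All 4 libraries with a tail lay above all 4 others in 8 of the 9 members, the exception being Ifi47, and in 4.72% of all tested genes. Of the 9, only Irgm2 and Igtp passed the filter without the libraries with a tail, and Iigp1 failed it. The 8 of 9 is thus a description and not like for like with that share. This contrast uses the same libraries as those above and adds no separate evidence. Fewer members, and fewer of all tested genes, were called in it without any one library of the groups without a tail. The same held without zfCTT replicate 1 or mSTING replicate 1. The median difference of the members was 2.415 in the full fit, 2.19 without zfCTT replicate 1 and 2.26 without mSTING replicate 1.

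Between the 2 tails, every member was higher with zfCTT than with mSTING, in both libraries of each, against 24.9% of all tested genes. Gbp2, Gbp5 and Gbp7 passed the filter on low values only because of the zfCTT libraries, and Iigp1 failed it. This count and the median below are thus descriptions. The ratio of mean RPKM was 16.8 for Gbp2, 11.7 for Gbp5, 8 for Gbp3, 7.54 for Irgm2, 6.63 for Iigp1, 6.06 for Irgm1, 6.03 for Gbp7, 4.80 for Igtp and 3.31 for Ifi47. The differences were 1.49 for Ifi47 to 3.27 for Gbp2 on the log2(RPKM + 1) scale, with a median of 2.25 beside 0.01 over all genes. None passed the threshold (limma), the nearest being Irgm2 at 2.56 (adjusted p = 0.0655), Gbp2 at 3.27 (adjusted p = 0.133) and Irgm1 at 2.19 (adjusted p = 0.159). All 8 had an unadjusted p under 0.05, beside 1476 of the 13475 tested genes. Voom on the recovered reads called 0, and 0.111% of all tested genes were called higher. With the replicate block 2 members were called, beside 44 of all tested genes. Without zfCTT replicate 2 the median difference was 2.70.

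The 2 libraries of mSTING, and likewise those of zfCTT, differed in the same direction for every member. In mSTING, all 9 members were higher in replicate 1 than in replicate 2, by 1.58-fold for Irgm2 to 12-fold for Iigp1, with a median of 4.11, where the median of all tested genes was 0.973. In zfCTT, all 9 were higher in replicate 1, by 1.55-fold for Ifi47 to 3.29-fold for Gbp3, with a median of 2.30 against 1.04 for all tested genes. Without a transgene, 5 of the 7 members with reads were higher in replicate 1 (0.842 to 1.83), and with dCTT 6 of 7 (0.955 to 3.08). Of the tested genes above 0 in both libraries, 45.8% were higher in replicate 1 in mSTING and 54.1% in zfCTT. The share was 50.2% without a transgene and 51.0% with dCTT. Summed over the 9 members, the family had 38.2 and 12.3 RPKM in mSTING, 215 and 102 in zfCTT, 5.02 and 3.82 without a transgene and 4.88 and 3.65 with dCTT. Tmem173 went the other way between these libraries, at 10.6 and 22.2 RPKM in mSTING and 14.2 and 20.6 in zfCTT, and its part in the result was not tested.

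**Figure D3:**
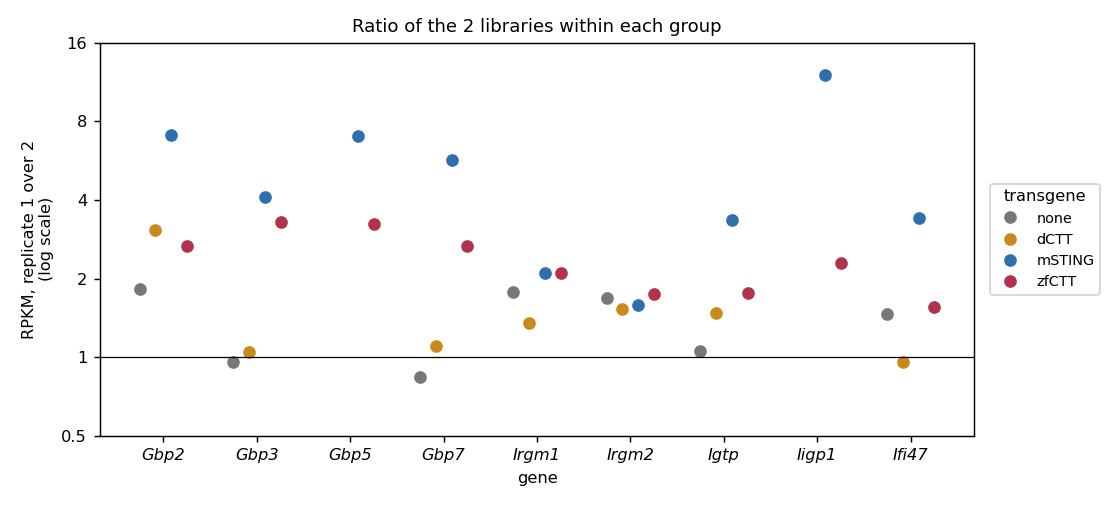
RPKM of replicate 1 over replicate 2 for each member, on a log scale, coloured by transgene; genes without reads in a group have no point. The mSTING points run from 1.58 for Irgm2 to 12 for Iigp1 and the zfCTT points from 1.55 to 3.29, all above the line at 1.

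The other interferon-inducible GTPases of the mouse genome, 17 genes, were taken as a fixed list of further guanylate-binding proteins, immunity-related GTPases, the very large GTPase Gvin1 and the myxovirus resistance genes. Of these, 7 passed the filter, and 1, Mx2, was called higher with zfCTT (2.54 ± 0.35, limma adjusted p = 0.0374), where 0.928% of all tested genes were. Mx2 had 3.24 and 0.891 RPKM with mSTING and 4.54 and 5.19 with zfCTT, against at most 0.0113 in the other groups, so its mSTING and zfCTT means were 2.35-fold apart. All 7 passed the filter only because of the zfCTT libraries. The call of Mx2 and the tests of the other genes below thus carry no weight of their own. Mx1 differed by 2.89 ± 0.57 (adjusted p = 0.0798). The effector gene Gm12250, annotated as a pseudogene and known as Irgb10, had 0.0283 and 0.00776 RPKM without a transgene, 0.0705 and 0.00458 with dCTT, 3.58 and 0.223 with mSTING and 28.3 and 7.54 with zfCTT. Its difference between zfCTT and no transgene was 3.96 ± 0.73 (adjusted p = 0.0639). Tgtp2, whose promoter stretch resembles those of Igtp and Irgm2 above, had 2.96 and 0.120 RPKM with mSTING and 16.8 and 3.99 with zfCTT, against at most 0.0368 elsewhere (3.21 ± 0.73, adjusted p = 0.112). Tgtp1, a near copy of Tgtp2 between which the counting may have split reads, differed by 2.66 ± 0.66 (adjusted p = 0.144), and Gvin1 by 1.48 ± 0.36 (adjusted p = 0.138). Gm5431 had the smallest difference of the 7, 0.99 ± 0.25 (adjusted p = 0.151), at 0.318 and 0.279 RPKM without a transgene and 2.13 and 1.13 with zfCTT.

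The remaining genes of the list were low. The chromosome 5 cluster of Gbp4, Gbp6, Gbp8, Gbp9, Gbp10 and Gbp11, several of which share exonic bases, did not pass the filter and was highest in zfCTT replicate 1, at 0.797 RPKM for Gbp11 to 2.85 for Gbp4. Gbp2b, the neighbour of Gbp2, had no read in the 4 libraries without a transgene or with dCTT, 8 and 1 reads with mSTING and 42 and 21 with zfCTT. Gm4951 had no read in those 4 libraries either and 0.943 and 0.272 RPKM with zfCTT. Irgc1, known from testis, had 0 to 9 reads in any library. Both zfCTT libraries were above both without a transgene in 16 of the 17 genes, Irgc1 being the exception, where 18.8% of all tested genes did so, and both were above both mSTING libraries in 15, where 24.9% did so. For mSTING against no transgene this held in 12 of 17, beside 15.3%. The 17 include 10 genes that failed the filter, among them F830016B08Rik, which counts as higher on 2 and 1 reads against 0, so these counts are not like for like with the shares. For mSTING against no transgene, 0 of the 7 tested genes were called by limma (1 at an unadjusted p under 0.05, beside 467 of all tested genes).

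**Figure D4:**
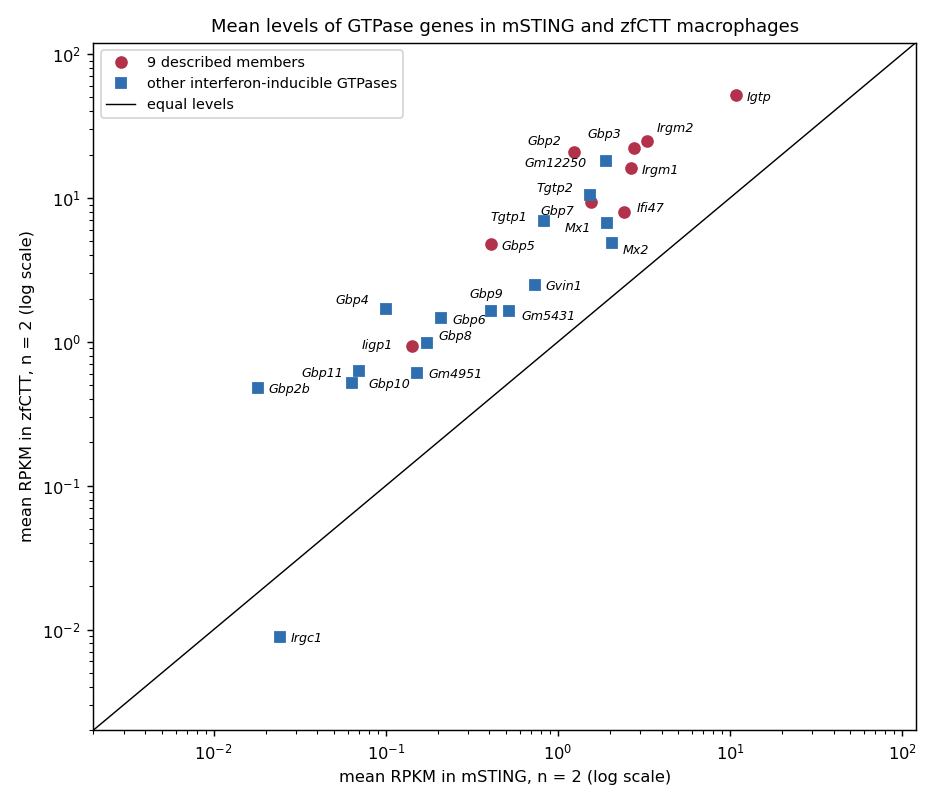
Mean RPKM of GTPase genes in mSTING (x) and zfCTT (y), each over 2 libraries, both on log scales; circles are the 9 members, squares the other interferon-inducible GTPases, and the line marks equal levels. All points lie above the line except Irgc1; F830016B08Rik, with no read in mSTING, has no point.

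Upstream of the family, interferon-beta itself was measured in the tailed groups. Ifnb1 had no read without a transgene or with dCTT, 4 and 6 reads with mSTING (0.0605 and 0.0908 RPKM) and 281 and 135 with zfCTT (18.7 and 5.17 RPKM). It rose by 3.46 ± 0.48 with zfCTT against no transgene (limma, adjusted p = 0.0374), and its mean RPKM was at least 130-fold higher. Ifng, which encodes interferon-gamma, had no read in any library. Of the 17 interferon genes in the list, Ifnb1 alone passed the filter, and only because of the zfCTT libraries, so its call carries no weight of its own. Ifna5 reached 0.6999 RPKM in zfCTT replicate 1 and was at 0 in the other 7 libraries.

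Of 16 genes of interferon reception and signalling, all of which passed the filter, 6 rose with zfCTT against no transgene and none fell. Over all 13475 tested genes, 0.928% were called higher and 21 genes lower. Irf1, which binds the ISRE, had 4.05 and 3.67 RPKM without a transgene, 4.599 and 4.022 with dCTT, 24.6 and 8.21 with mSTING and 108.9 and 74.3 with zfCTT (4.23 ± 0.46, limma adjusted p = 0.0203). Irf1 thus stood highest in zfCTT, like the GTPases. Irf9 did not follow that order, at 8.12 and 5.13 RPKM with mSTING and 6.99 and 7.54 with zfCTT, against 0.963 to 1.157 elsewhere (2.06 ± 0.21 for zfCTT against no transgene, adjusted p = 0.0196). Irf7 (5.84 ± 0.86, adjusted p = 0.0438) and the feedback inhibitors Socs1 (4.16 ± 0.53, adjusted p = 0.0291) and Usp18 (5.44 ± 0.55, adjusted p = 0.0196) rose as well, and Stat2 missed the threshold (1.97 ± 0.33, adjusted p = 0.0540). The ratio of mean RPKM between zfCTT and mSTING was 5.59 for Irf1, 3.89 for Socs1, 2.89 for Usp18, 2.12 for Stat2, 1.97 for Irf7 and 1.10 for Irf9, set beside 3.31 to 16.8 over the 9 GTPases; whether these ranges differ was not tested. Irf1, Irf7, Irf9 and Usp18, as well as Icam1 and Csrnp1 named below, share exonic bases with a neighbouring gene, and their values carry the same uncertainty as those of Igtp and Irgm2. The receptor subunit gene Ifngr2 stood at 22.6 to 29.5 RPKM. Between zfCTT and no transgene, the receptor genes differed by -0.52 for Ifnar1 (limma, adjusted p = 0.343) and -0.52 for Ifnar2 (adjusted p = 0.230). The difference was -0.36 for Ifngr1 (adjusted p = 0.359) and -0.19 for Ifngr2 (adjusted p = 0.639), and no receptor gene was called. Over the list, 9 genes higher and 3 lower had an unadjusted p under 0.05 by limma, beside 938 higher and 870 lower of all 13475 tested genes. The median difference of the list was 0.79, beside -0.04 over all genes.

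Of 15 tested genes for the autophagy-type and ubiquitin-type conjugation that guides GTPases to vacuoles, 2 rose with zfCTT against no transgene, Trim21 (1.64 ± 0.25, limma adjusted p = 0.0453) and Trim25 (1.57 ± 0.18, adjusted p = 0.0227), both ubiquitin ligases, where 0.928% of all tested genes were called higher. At an unadjusted p under 0.05 there were 3 higher and 2 lower, beside 938 higher and 870 lower of all 13475 tested genes. Ube2l6, an ISG15-conjugating enzyme, differed by 2.71 ± 0.47 (adjusted p = 0.0587). Atg5 was at 7.04 to 9.02 RPKM over the 8 libraries (-0.17 ± 0.16, adjusted p = 0.690) and Gabarapl2 at 11.1 to 19.0 (-0.36 ± 0.21, adjusted p = 0.522); both are needed for the loading of immunity-related GTPases onto vacuoles. The 2 most abundant were Ubb, at 841 to 1385 RPKM, and Sqstm1, at 34.9 to 122 RPKM. Of 6 enzymes that prenylate proteins and process the prenylated end, among them Fntb, Rce1, Pggt1b and Zmpste24, none was called by limma or by voom, and 0 had an unadjusted p under 0.05 in that comparison.

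Of the 7 tested genes of the inflammasome and caspase-11 pathway, none was called by limma or voom with zfCTT, though 3 higher and 1 lower had an unadjusted p under 0.05. At that threshold there were 938 higher and 870 lower of all 13475 tested genes. Gsdmd, which encodes the pore protein of pyroptosis, differed by 0.81 (adjusted p = 0.281), Nlrp3 by 0.61 (adjusted p = 0.211), Il18 by 1.18 (adjusted p = 0.344) and Pycard by -1.65 (adjusted p = 0.322). Casp4, the mouse gene of caspase-11, did not pass the filter, at 0.928 and 0.0930 RPKM with zfCTT and at most 0.193 elsewhere. Of 5 NADPH oxidase subunits, none was called by limma or voom, and 1 lower had an unadjusted p under 0.05, beside the same 870 lower of all tested genes. Cyba stood at 318 to 500 RPKM and Ncf1 at 54.0 to 74.6. None of these 6 lists had a call for mSTING or dCTT against no transgene, or for zfCTT against mSTING.

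**Figure D5:**
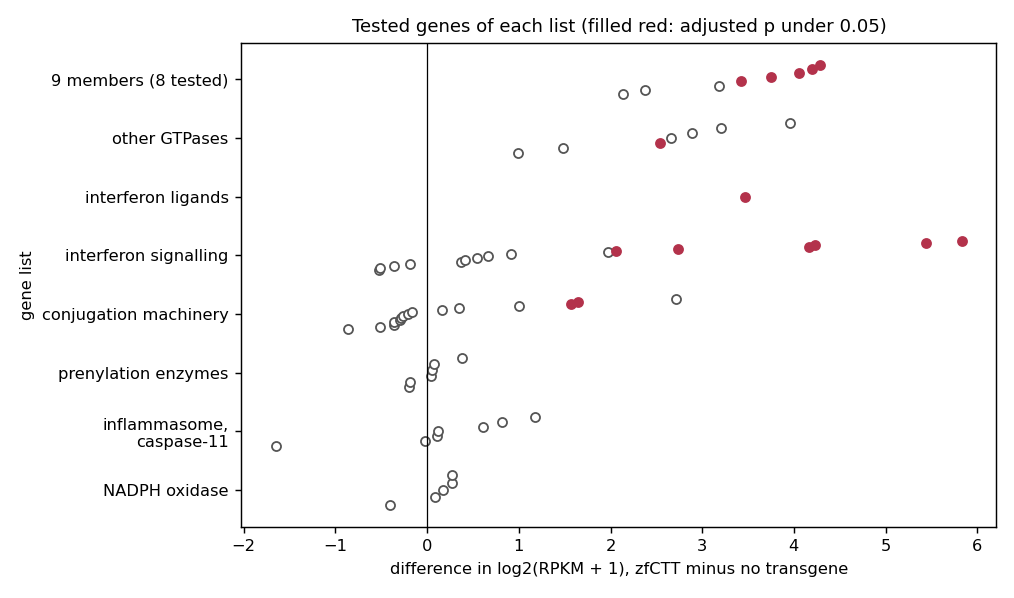
Difference in log2(RPKM + 1) between zfCTT and no transgene for every tested gene of each list, 1 point per gene; filled red points have an adjusted p under 0.05, and points are spread vertically within a list for visibility only. The 8 tested members lie between 2.13 and 4.28, and the genes for prenylation and the NADPH oxidase lie around 0.

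The members resembled each other across the libraries. Pearson's r between the log2(RPKM + 1) of a member and the mean of the other tested members ran from 0.976 (Gbp5) to 0.997 (Gbp3) over the 8 libraries, which is a description, since the 4 groups and not the 8 libraries set most of it. Among genes outside the GTPases with a mean RPKM of at least 5, the 6 most like the mean of the members were Icam1 (r = 0.996), Cd40 (0.995), Irf1 (0.992), Csrnp1 (0.991), Rad23b (0.991) and Sik3 (0.990). Over the 6 libraries without zfCTT the same genes had r of 0.976, 0.969, 0.997, 0.969, 0.963 and 0.978. Icam1, an adhesion molecule, had 14.9 and 14.6 RPKM without a transgene, 35.8 and 20.8 with mSTING and 109.4 and 59.3 with zfCTT. Cd40, a co-stimulatory receptor, had 1.24 and 0.833, then 5.66 and 1.33, then 38.2 and 17.3. In both, as in the GTPases, replicate 1 was the higher library of mSTING and of zfCTT. The 6 genes were picked for likeness over these same libraries, so this order adds no separate evidence. Likeness in r is not likeness in size: Rad23b had 26.55 and 27.31 RPKM without a transgene and 41.05 and 37.57 with zfCTT.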

How the data were processed

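Polyadenylated RNA of 8 libraries was sequenced single-end, per the labels' protocols, and groups and replicate numbers came from the sample labels. The authors deposited RPKM for 53715 genes. Per the submitters' processing notes, cutadapt 1.16 and HISAT2 2.1.0 are listed with mouse builds GRCm38 and mm10, without their roles. No source used here gives the read counter, the annotation release or whether strand was used. Identifiers matched GENCODE M21 for 53620 genes, which gave symbols, positions and exon lengths. RPKM times exon length came out whole (to 0.05 reads) in 95.0% to 95.6% of values above 0, which gave depths of 20.1 to 171 M reads. Because the values are not counts, limma 3.58.1 (R 4.3.3) was run on log2(RPKM + 1), which understates the change of low genes. Genes reaching 1 RPKM in 2 or more libraries, 13475 in all, entered 1 fit over the 4 groups (4 residual degrees of freedom, intensity trend, two-sided). Benjamini-Hochberg adjustment ran over all tested genes within each of 7 contrasts at 0.05, and "called", "rose" and "fell" refer to it. An exact permutation test of 2 against 2 libraries cannot go below p = 0.333. A fold against a group without reads was taken against 3 reads in each library, and 95% intervals and floors cover counting error only. Other settings were other pseudocounts, filters and scaling, a replicate block, voom on recovered reads and leaving out each library.

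The members and lists were chosen with earlier results of these data known. Named were all 9 members, 17 other interferon-inducible GTPases, fixed context genes, up to 2 genes with the highest mean and 2 with the largest zfCTT difference per list, and the 6 genes most like the family. From the lists, called genes were named too, and Stat2, Socs1, Ifna5 and the ratios between zfCTT and mSTING in the signalling list were picked after their values were seen. RefSeq promoter windows (GRCm38.p6) were searched on both strands. Some genes of the lists are counted but not reported here by name.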

Additional observations from a re-analysis of the deposited data

How the results depend on the processing

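Settings were changed one at a time. For mSTING or dCTT against no transgene and for dCTT against mSTING, 0 members were called (limma) in every setting run. For zfCTT against no transgene, zfCTT against dCTT and tail against no tail, 5 members were called in each. Beside them, 146, 146 and 123 of all tested genes were called, higher or lower. The counts of members were 6, 6 and 6 with a pseudocount of 0.1 and again with 0.5, 6, 6 and 5 with median-of-ratios scaling, 0, 0 and 0 without a filter on low values, and 3, 3 and 3 with a mean RPKM of at least 5, where Gbp2, Gbp3, Irgm2 and Igtp alone were tested. With voom on recovered reads they were 2, 3 and 3. With a replicate block they were 8, 8 and 7, and 2 for zfCTT against mSTING. Leaving out 1 library gave 0 to 7 in each of the 3, and 0 to 2 for zfCTT against mSTING. Leaving out replicate 1 of the cells without a transgene and of dCTT together, chosen after seeing the data, gave 0, 0 and 0.

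The median difference of the members moved beyond its spread in these settings. With a pseudocount of 0.1 it was 2.21 for mSTING against no transgene, -2.31 for dCTT against mSTING, 2.81 for zfCTT against mSTING, 5.05 for zfCTT against no transgene, 5.17 for zfCTT against dCTT and 3.62 for tail against no tail. With a pseudocount of 0.5 the last 3 were 4.11, 4.12 and 2.85, and with a mean RPKM of at least 5, zfCTT gave 4.13 and 4.10. With voom the same 6 were 2.99, -3.19, 2.86, 5.79, 5.99 and 4.49. Leaving out 1 library gave 0.65 to 1.63, -1.69 to -0.65, 1.70 to 2.75 and 3.08 to 4.03 for the first 4. Directions turned only for dCTT against no transgene, where all values were near 0. Gbp2 was -0.076 with voom and -0.001 without the replicates 1 of both low groups, where Igtp was -0.090. Leaving out 1 library gave -0.006 to 0.015 for Gbp2, -0.250 to 0.022 for Irgm1, -0.118 to 0.224 for Irgm2 and -0.114 to 0.252 for Igtp.

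The replicate numbers are in the titles, and no label says what they share. Deviations of same-numbered libraries correlated at 0.762 between no transgene and dCTT, and at 0.032 to 0.433 between the other pairs of groups, over 2 numbers. Depth limits Gbp2, Gbp5 and Iigp1 most, with 0 to 3 reads in each library of the low groups.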
